A study of Mus musculus with 24 samples.

Results

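Cardiac macrophages with high Ccr2 and renal macrophages named M1 were compared by the DNA barcodes they carried, in 6 of the 24 samples of the series. The samples were those whose files are named Ccr2hi-cardiac or M1-renal, 3 of each, and the number in the name gave the mouse. Both subsets came from the same 3 mice, so that each mouse gave 1 pair of samples. Cultured HSCs from bone marrow of C57BL/6 mice had been infected with the barcoding lentivirus pBC008 on day 5 after plating, and GFP+LinSca1+cKit+ cells were sorted 4 days after infection. The recipients were CD45.2 males of 5 weeks, strain C57BL/6J, given 9 Gy to the whole body and rescue cells (CD45.2+ LincKit+Sca1-), and both organs were taken after 2 months. All populations of the series share this treatment, and no mouse without irradiation or transplantation was analysed here.

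A barcode is copied with the genome at each division, so cells that descend from one infected founder cell carry the same sequence. Macrophages of an organ are known to have several sources, among them cells that settled before birth and cells that arrive later from blood monocytes. Ccr2 is the chemokine receptor that monocytes need to leave the bone marrow, and cardiac macrophages that express it are usually held to derive from monocytes. M1 is a name used for inflammatory macrophages, and the labels do not give the markers by which the renal M1 cells were sorted. Cells of the host and the rescue cells carry no barcode, so only the barcoded part of each subset is seen. The files hold barcode counts and no gene expression, so the level of Ccr2 in the sorted cells was not analysed here.

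The barcodes that led a subset, or that differed most between the subsets of a mouse, show what was counted. Each is 52 bases long, was made for the library and has no position in the mouse genome. They are printed 5′ to 3′ as in the deposited files, and the capitals mark the first 10 bases, which serve as the barcode's name in the text. Bias is the ratio of both shares after 0.01% was added to each, so it ranks barcodes otherwise than the plain ratio.
Highest in M1, mouse 1: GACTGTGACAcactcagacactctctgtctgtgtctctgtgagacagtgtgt
Highest in Ccr2hi, mouse 1: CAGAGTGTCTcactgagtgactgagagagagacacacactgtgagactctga
Most biased to Ccr2hi, mouse 1: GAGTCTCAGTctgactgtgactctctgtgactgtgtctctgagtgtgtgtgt
Most biased to M1, mouse 1: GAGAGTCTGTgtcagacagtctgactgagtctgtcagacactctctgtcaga
Highest in M1, mouse 2: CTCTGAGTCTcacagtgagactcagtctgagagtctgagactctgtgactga
Highest in Ccr2hi, mouse 2: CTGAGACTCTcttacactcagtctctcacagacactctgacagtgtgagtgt
Most biased to Ccr2hi, mouse 2: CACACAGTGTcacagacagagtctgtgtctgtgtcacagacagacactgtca
Most biased to M1, mouse 2: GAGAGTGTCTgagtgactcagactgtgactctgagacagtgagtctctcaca
Highest in M1, mouse 3: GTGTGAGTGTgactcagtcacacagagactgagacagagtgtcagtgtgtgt
Highest in Ccr2hi, mouse 3: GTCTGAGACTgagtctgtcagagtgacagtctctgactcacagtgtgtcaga
Most biased to Ccr2hi, mouse 3: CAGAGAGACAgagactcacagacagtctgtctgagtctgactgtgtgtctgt
Most biased to M1, mouse 3: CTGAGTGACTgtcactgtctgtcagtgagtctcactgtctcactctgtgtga
In 11 of these 12 barcodes bases of the pair G or C take turns with bases of the pair A or T along the whole length, and CTGAGACTCT departs from that order.

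The 6 samples were sequenced to similar depth, from 11640032 reads in M1 of mouse 1 to 12892062 reads in M1 of mouse 2. Values are given as the share of a sample's reads, in percent, which is a share of amplified barcode copies and not of cells. The threshold for presence of a barcode was 0.01%, or 1165 to 1290 reads in these samples. In the sample with the fewest reads a count of 0 still allowed up to 2.58e-05%. PCR reads carry no molecular identifiers here, so such limits and the Wilson intervals given for leading barcodes cover counting error only. Barcodes of the alternating order held 86.3% to 91.6% of Ccr2hi reads and 85.0% to 93.1% of M1 reads. How many cells were sorted for each sample is not stated in the labels, so its part in the numbers of barcodes was not tested.

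Ccr2hi macrophages carried many barcodes at low shares, and M1 macrophages of the same mice carried few at high shares. In mice 1, 2 and 3, 1299, 925 and 993 barcodes were present in Ccr2hi cells. In M1 cells there were 226, 94 and 120. The lowest Ccr2hi count lay 4.09 times above the highest M1 count, and within a mouse the ratio was 5.75, 9.84 and 8.28.

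The leading barcodes took most M1 reads. In M1 cells 7, 5 and 4 barcodes were enough for 50% of the reads of mice 1, 2 and 3, and 27, 20 and 17 were enough for 90%. In Ccr2hi cells 162, 48 and 63 barcodes were needed for 50%, and 942, 551 and 599 for 90%. The effective number, which weights barcodes by abundance (e raised to the Shannon entropy), was 791, 333 and 411 in Ccr2hi and 33.3, 24.8 and 19.1 in M1 cells. No value of one subset fell within the range of the other in these measures. Mouse 1 had the most barcodes in both subsets, and its effective number was the highest in both.

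**Figure D1:**
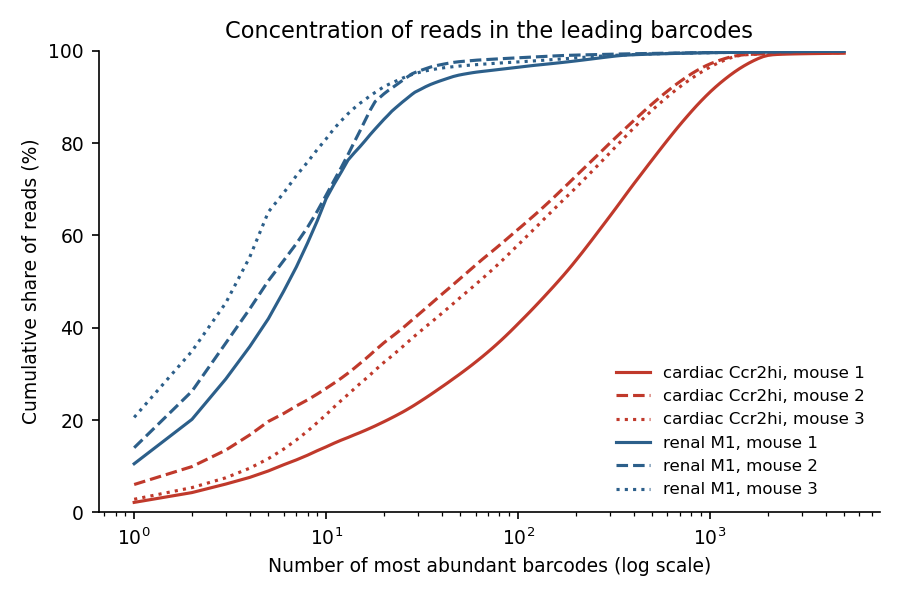
Cumulative share of reads (%, vertical axis) held by the most abundant barcodes, counted from the first on a log scale (horizontal axis), with 1 line per sample, red for cardiac Ccr2hi and blue for renal M1. All 3 M1 lines pass 50% by the barcode of rank 7, and the Ccr2hi lines pass it between ranks 48 and 162.

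The most abundant barcode held 10.5%, 14.0% and 20.6% of M1 reads in the 3 mice, and 2.18%, 6.05% and 2.85% of Ccr2hi reads. The 95% Wilson intervals of these shares were narrow, for example 20.5733% to 20.6178% for M1 of mouse 3 and 2.84108% to 2.85993% for its Ccr2hi sample. The 10 most abundant barcodes held 68.0%, 68.7% and 80.9% of M1 reads and 14.2%, 26.9% and 21.2% of Ccr2hi reads. Again every M1 sample lay above every Ccr2hi sample.

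Tests of these differences are limited by the number of mice. An exact permutation of 3 samples against 3 cannot go below p = 0.1, two-sided, and sign flips within the 3 mice cannot go below 0.25. The ratio of geometric means, Ccr2hi over M1, was 7.76 for the number of barcodes, 19.0 for the effective number and 15.2 for the barcodes that hold 50% of reads. The sizes depended on the measure: with presence set at 0.001% or 0.1% the ratio of numbers was 3.60 or 4.82, and with the inverse Simpson index the ratio of effective numbers was 10.7. Each had an exact permutation p of 0.1, as had the mean difference of -11.4 percentage points in the share of the top barcode and of -51.8 points in that of the top 10. Over the 17 tests made here the Benjamini-Hochberg adjusted p of each was 0.121. Direction was the same in 3 of 3 mice for all 5 measures.

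Nearly the whole M1 repertoire was found again in Ccr2hi cells, and the reverse did not hold. Of the barcodes present in M1 cells, 198, 88 and 96 were also present in Ccr2hi cells of the same mouse. These were 87.6%, 93.6% and 80.0% of the M1 barcodes but 15.2%, 9.51% and 9.67% of the Ccr2hi barcodes. Barcodes present in Ccr2hi cells held 97.5%, 98.8% and 96.8% of M1 reads. Barcodes present in M1 cells held 39.2%, 51.3% and 43.1% of Ccr2hi reads. The difference between both shares was 53.2 percentage points on average (3 against 3, exact permutation p = 0.1, adjusted p = 0.121). The subset with more barcodes can cover more of the other, so this asymmetry is not independent of the numbers above.

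The overlap of the repertoires was low, and barcodes present in Ccr2hi but not in M1 cells held 55.9%, 45.2% and 53.4% of Ccr2hi reads in mice 1, 2 and 3. Overlap added up, barcode by barcode, the lower of both shares, and is 1 for identical and 0 for separate repertoires. Between Ccr2hi and M1 cells of one mouse it was 0.221, 0.400 and 0.201 in mice 1, 2 and 3. In the 6 combinations of Ccr2hi cells of one mouse with M1 cells of another it was 0.0103 to 0.0159. Overlap within a mouse exceeded that between mice by 0.262 on average (exact permutation of the mouse numbers, one-sided p = 0.167, the smallest that 6 orders can give, adjusted p = 0.189).

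The pair lay well below the closest pairs and near the pair of the kidney. Ccr2hi overlapped with Ccr2lo macrophages of the heart by 0.787 ± 0.0106, and with M2 macrophages of the kidney by 0.698 ± 0.0443 (SD, n = 3 each). M1 macrophages overlapped with blood monocytes by 0.895 ± 0.0340 and with M2 macrophages of the same kidneys by 0.286 ± 0.0561 (SD, n = 3 each). The overlap of Ccr2hi with M1 averaged 0.274 ± 0.110 (SD, n = 3). It was lower than the first 3 of these in 3 of 3 mice (3 against 3, exact permutation p = 0.1 each, adjusted p = 0.121). From the overlap of M1 with M2 it differed by -0.0127 (exact permutation p = 0.8, adjusted p = 0.8), with the mouse-to-mouse spread many times that size. Without mouse 1 that small difference turned to 0.0124.
With the Spearman correlation over present barcodes in place of overlap, the differences from the pair of Ccr2hi with M2 and from the pair of M1 with monocytes turned to 0.0358 and 0.0630 (exact permutation p = 0.5 and 0.8).

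The 10 barcodes that led M1 cells were all found in Ccr2hi cells at lower shares. Together they held 11.8%, 26.4% and 12.9% of Ccr2hi reads in mice 1, 2 and 3. In monocytes of the same mice they held 62.3%, 64.9% and 75.4%, near their share in M1 cells. Each of the 10 was lower in Ccr2hi than in M1 cells in each of the 3 mice, by a median of 6.15, 2.84 and 4.64 times. Single barcodes ranged from 2.78 to 12.2 times lower in mouse 1, from 1.72 to 3.93 times in mouse 2 and from 1.62 to 29.2 times in mouse 3. The list was chosen on M1 values, so that these ratios describe it and partly restate the concentration of M1 reads.

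The spread among these 10 barcodes was wider against Ccr2hi cells than against monocytes. The SD of the log2 ratio of Ccr2hi to M1 shares over the 10 was 0.84, 0.38 and 1.30 in mice 1, 2 and 3. For the log2 ratio of monocyte to M1 shares it was 0.26, 0.17 and 0.21. In mouse 2 the leading M1 barcodes were therefore lowered by similar factors, and in mouse 3 by very different ones. Of the 10 leading barcodes of each subset, 7, 8 and 4 were common to both in mice 1, 2 and 3.
With the 10 leading M1 barcodes removed from both samples and the remaining shares rescaled, the overlap was 0.200, 0.231 and 0.205. The 10 barcodes accounted for 0.264 of the overlap in mouse 2, against 0.118 and 0.129 in mice 1 and 3.

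The leading M1 barcode of mouse 1, GACTGTGACA, held 10.5% of M1 and 1.01% of Ccr2hi reads. Its shares were 9.57% in monocytes, 10.7% in neutrophils, 1.71% in M2, 0.594% in Ccr2lo, 0.702% in B cells and 1.45% in T cells. It was high in M1 and the blood myeloid cells and near 1% or below in both cardiac subsets. The next M1 barcodes, GAGACACTGA and GAGAGTCAGA, held 9.61% and 8.74% of M1 and 0.791% and 0.823% of Ccr2hi reads. They were alike in the other populations too, with 4.79% and 4.30% in B cells and 0.403% and 0.362% in T cells.

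The leading Ccr2hi barcode of mouse 1, CAGAGTGTCT, held 2.18% of Ccr2hi reads but 6.04% of M1 reads, where it ranked 5. The second, GTCACAGACA, held 2.12% of Ccr2hi and 5.92% of M1 reads. Both were thus higher in M1 cells, although they led the Ccr2hi repertoire. The third, GAGTGTCTGA, ran the other way, with 1.85% of Ccr2hi reads and 0.291% of M1 reads. It held 2.16% of B cell reads and 0.221% of neutrophil reads.

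In mouse 2 the same 3 barcodes led both subsets. CTCTGAGTCT held 14.0% of M1 and 3.56% of Ccr2hi reads, with 11.6% in monocytes, 0.191% in B cells and 0.261% in T cells. CTCTGTCACT held 12.2% of M1 and 3.88% of Ccr2hi reads. CTGAGACTCT was the most even of them, with 10.4% of M1, 6.05% of Ccr2hi, 10.0% of monocyte reads, 5.60% in B cells and 9.51% in T cells.

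In mouse 3 GTGTGAGTGT held 20.6% of M1 and 1.87% of Ccr2hi reads, an 11.0-fold difference, and 18.0% of monocyte reads. CTCACTCAGT held 14.3% of M1 and 0.695% of Ccr2hi reads, a 20.6-fold difference. GTCTGAGACT, the third in M1 with 10.5%, was the first in Ccr2hi cells with 2.85%, and it held 8.25% of B cell reads. The third Ccr2hi barcode, CTGACTCTCA, held 2.13% of Ccr2hi and 0.136% of M1 reads. It held 9.85% of B cell, 2.61% of T cell and 0.459% of monocyte reads, so it was high in lymphoid blood cells and low in M1 and monocytes.

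Single barcodes were then compared within each mouse, among those at 0.1% or more in Ccr2hi or M1 cells. Each mouse has 1 sample of each subset, so these counts carry no test, and a barcode was counted as different past 4-fold after 0.01% was added to both shares. Of 248 barcodes in mouse 1, 189 (76.2%) were higher in Ccr2hi and 25 (10.1%) higher in M1 cells. Of 179 in mouse 2, 140 (78.2%) were higher in Ccr2hi and 5 (2.79%) in M1 cells. Of 187 in mouse 3 the counts were 155 (82.9%) and 17 (9.09%). The percentages are also the background rates of such calls, since they cover all barcodes compared. Of the barcodes compared, 233, 174 and 176 reached 0.1% in Ccr2hi cells and 48, 39 and 34 in M1 cells, so the excess on the side of Ccr2hi restates the minimum and the larger number of Ccr2hi barcodes.

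Few barcodes lay within 4-fold, 34, 34 and 15 in the 3 mice. Close to the limit, 14, 11 and 4 barcodes differed by 3-fold to 4-fold and 16, 7 and 5 by 4-fold to 5-fold. The barcodes higher in Ccr2hi cells held 39.0%, 31.6% and 51.97% of Ccr2hi reads but 1.87%, 1.09% and 2.17% of M1 reads. The barcodes higher in M1 cells held 70.6% and 70.5% of M1 reads in mice 1 and 3, against 7.61% and 7.33% of Ccr2hi reads. In mouse 2 they held only 4.51% of M1 reads, and its leading M1 barcodes lay within 4-fold.

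**Figure D2:**
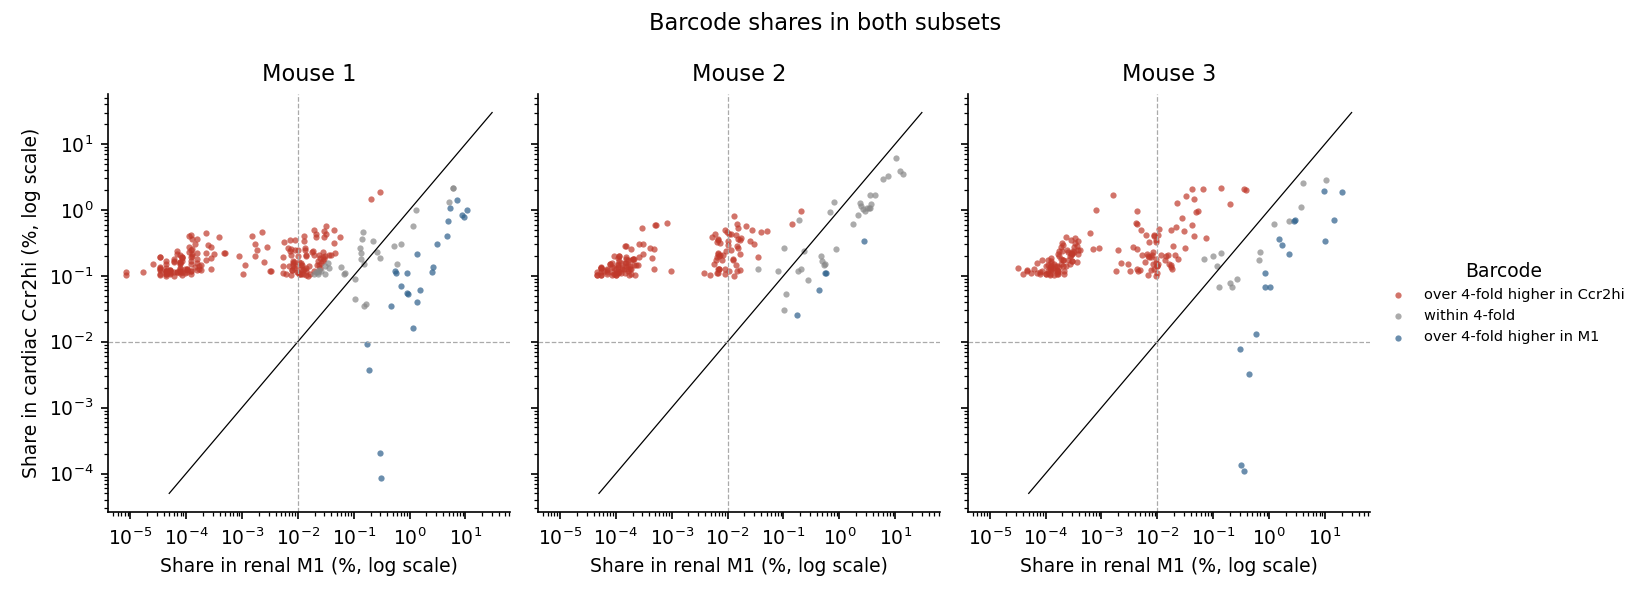
Share of reads in renal M1 (%, horizontal axis) and cardiac Ccr2hi cells (%, vertical axis), both on log scales, for each barcode at 0.1% or more in either, with 1 panel per mouse. The solid line marks equal shares and the dashed lines 0.01%, and the 140 to 189 red points per mouse are over 4-fold higher in Ccr2hi, while the 5 to 25 blue points are over 4-fold higher in M1.

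Barcodes that reached 0.1% in Ccr2hi cells spread widely in their share in M1 cells, as the plot of shares by mouse shows. Of 583 such barcodes in the 3 mice, 263 lay under 0.001% in M1 cells, 230 lay between 0.001% and 0.1%, and 90 lay at 0.1% or more. Within the lowest range 230 lay under 0.0003% and 33 from there to 0.001%. Above it 14 lay between 0.001% and 0.003%, 87 between 0.003% and 0.01%, 95 between 0.01% and 0.03% and 34 between 0.03% and 0.1%. Over the 3 mice together the count was thus lowest around 0.001% to 0.003%, and no gap separated the middle from the highest range. Single mice differed. In mouse 1 there were 5 between 0.0003% and 0.001% and 9 between 0.001% and 0.003%. In mouse 2 only 5 lay between 0.03% and 0.1%, against 26 between 0.01% and 0.03% and 34 at 0.1% or more. The limits of these ranges were set after the values were seen. The 0.01% taken as presence runs through the middle range, so the number of barcodes counted as shared depends on it. At 0.001% the number of barcodes was 2083, 1497 and 1540 in Ccr2hi cells and 543, 370 and 514 in M1 cells.

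The 90 barcodes at 0.1% or more in both subsets carried the largest part of M1 and a smaller part of Ccr2hi reads. They held 86.1%, 95.8% and 91.1% of M1 reads and 20.9%, 40.1% and 23.2% of Ccr2hi reads. All 90 were present in monocytes, neutrophils and B cells. Those between 0.001% and 0.1% in M1 cells were present in B cells in 80.3% ± 8.11 and in monocytes in 54.7% ± 14.8 of cases (SD, n = 3 mice). Those under 0.001% in M1 cells were present in B cells in 51.7% ± 9.40, in monocytes in 22.3% ± 1.95 and in T cells in 12.9% ± 4.97 of cases (SD, n = 3 mice). Values of the other populations were not used to choose these ranges. M1 cells overlapped with monocytes by 0.895 on average, so presence in monocytes is not independent of the M1 share.

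Barcodes clearly held by Ccr2hi cells and not present in M1 cells numbered 133, 109 and 122, out of 233, 174 and 176 barcodes at 0.1% or more in Ccr2hi cells. They held 23.7%, 20.3% and 27.2% of Ccr2hi reads. None of the 364 was at 0 reads in M1 cells, and 81 had 1 to 10 reads there. In 188 of the 364 the M1 share exceeded that of the same barcode in M1 cells of both other mice, and in 78 it did so by over 10 times. The mice differed in this: the 188 were 43 of 133, 29 of 109 and 116 of 122 in mice 1, 2 and 3. The other 176 of the 364 were no higher in M1 cells of their own mouse than in M1 cells of another mouse.

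Of these 364 barcodes, 357 were present in both Ccr2lo and renal M2 macrophages, as were all 219 of the other Ccr2hi barcodes at 0.1% or more. In blood 217 were present in B or T cells, 122 in monocytes or neutrophils, and 140 in none of the 4 blood populations. Per mouse, 59.4% ± 4.08 were found in B or T cells and 33.4% ± 4.05 in monocytes or neutrophils (SD, n = 3). Of the other 219 barcodes at 0.1% or more in Ccr2hi cells, which were present in M1 cells, 90.2% ± 8.23 were in B or T cells and 81.3% ± 13.3 in monocytes or neutrophils (SD, n = 3). The 364 and the 219 were split by M1 share, and M1 cells overlapped with monocytes by 0.895 on average. Presence in monocytes or neutrophils is therefore not independent of that split.

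Leading barcodes of M1 cells that were under the limit of presence in Ccr2hi cells were few. Among 121 barcodes at 0.1% or more in M1 cells, 4 of mouse 1, 0 of mouse 2 and 4 of mouse 3 lay under 0.01% in Ccr2hi cells. All 8 were present in monocytes and in neutrophils, 7 in M2, 2 in B cells, 1 in Ccr2lo and 0 in T cells. They held 0.971% of M1 reads in mouse 1 and 1.41% in mouse 3. None of the 8 was at 0 reads in Ccr2hi cells. In 2 of the 8, both of mouse 1, the Ccr2hi share exceeded that of the same barcode in Ccr2hi cells of both other mice.

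The barcodes most biased to Ccr2hi cells were found in other tissue macrophages. In mouse 1 GAGTCTCAGT had 53142 reads (0.448%) in Ccr2hi and 27 reads (0.000232%) in M1 cells. It held 0.387% of Ccr2lo and 0.101% of M2 reads, and in blood 0.0165% in monocytes, 0.0072% in B cells and 0.000287% in T cells. Its M1 share was below the 0.000496% it reached in a sample of another mouse. GAGTGACTGA was similar, with 49006 reads in Ccr2hi and 14 reads in M1 cells, and at most 0.000267% in any blood population of its mouse. By the plain ratio of shares it was the more biased of these, at 3431-fold against 1929-fold. Its M1 share, 0.00012%, was also below the 0.000299% it reached in a sample of another mouse, so these ratios rest on trace reads.

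In mouse 2 CACACAGTGT held 0.636% of Ccr2hi, 0.563% of Ccr2lo and 0.344% of M2 reads, and 0.000838% of M1 reads. The same sequence held 0.495% of B cell reads in mouse 1, so it was not confined to mouse 2. CTCAGACTCT held 0.588% of Ccr2hi and 0.000504% of M1 reads, and 0.465% of B cell reads. In mouse 3 CAGAGAGACA ranked 10 in Ccr2hi cells with 1.70% and held 0.00164% of M1 reads. It was at 1.60% in Ccr2lo, 0.813% in M2, 0.509% in B cells, 0.144% in T cells and 0.0757% in monocytes. CACTCTGTGA followed, with 0.987% of Ccr2hi and 0.991% of Ccr2lo reads against 0.000798% of M1 reads. The M1 shares of CTCAGACTCT, CAGAGAGACA and CACTCTGTGA were below the 0.000987%, 0.00271% and 0.00151% they reached in a sample of another mouse.

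The barcodes most biased to M1 cells were found in blood myeloid cells. In mouse 1 GAGAGTCTGT held 1.16% of M1 and 0.0162% of Ccr2hi reads, and it reached 0.914% in monocytes and 0.662% in neutrophils. CTGAGTGAGT held 0.307% of M1 reads and had 10 reads in Ccr2hi cells, with 0.0559% in monocytes. By the plain ratio it was the more biased of both, at 3645-fold against 71.8-fold. Its Ccr2hi share, 8.42e-05%, was below the 0.000153% it reached in a sample of another mouse, so that ratio rests on trace reads. In mouse 3 CTGAGTGACT held 0.352% of M1 reads, had 13 reads in Ccr2hi cells and reached 0.290% in monocytes. Its Ccr2hi share, 0.000109%, was likewise below the 0.000342% it reached in a sample of another mouse. GACTGTCTGT held 0.441% of M1 reads and 0.00325% of Ccr2hi reads, and it was at 0.4999% in monocytes and 0.690% in neutrophils. Its Ccr2hi share was below the 0.00478% it reached in Ccr2hi cells of mouse 2. In mouse 2 the bias was smaller, with 2.76% of M1 and 0.336% of Ccr2hi reads for GAGAGTGTCT, and 0.442% and 0.0614% for CTGTCTGAGT.

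The classes formed on Ccr2hi and M1 values were then followed into the other 6 populations, whose values were not used to form them. On average M1 cells overlapped with monocytes by 0.895 and with neutrophils by 0.888. Ccr2hi cells overlapped on average with Ccr2lo by 0.787 and with M2 by 0.698. The shares of the classes in these populations are therefore not independent of how the classes were chosen. Barcodes over 4-fold higher in Ccr2hi cells held 31.6%, 37.0% and 48.5% of B cell reads and 36.3%, 45.0% and 54.1% of T cell reads in mice 1, 2 and 3. They held 5.88%, 3.39% and 4.84% of monocyte reads and 2.27%, 1.97% and 4.30% of neutrophil reads. In Ccr2lo cells they held 37.6%, 35.1% and 50.02%, and in M2 cells 27.9%, 33.5% and 34.7%. Within a mouse, the lower of the B and T cell shares was 5.37 to 10.9 times the higher of the monocyte and neutrophil shares. With 10-fold as the limit the class held less of each, on average 18.0% of T cell and 23.9% of B cell reads in place of 45.1% and 39.0%, and 2.12% of monocyte and 1.15% of neutrophil reads in place of 4.70% and 2.85%.

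A small number of the class accounted for 50% of its lymphoid reads. In T cells only 23.3%, 33.6% and 22.6% of its barcodes were present, and 8, 7 and 2 barcodes made up 50% of its T cell reads. In mouse 3 a single barcode held 15.3% of T cell reads. In B cells 63.5%, 62.9% and 68.4% of its barcodes were present, and 15, 10 and 7 made up 50% of its B cell reads. Over all barcodes, 18, 13 and 4 made up 50% of T cell reads and 23, 16 and 13 made up 50% of B cell reads. Such concentration was therefore not particular to the class. Of its barcodes 189, 139 and 155 were present in Ccr2lo and 185, 139 and 154 in M2 macrophages, of 189, 140 and 155. Such presence was not particular to the class: the barcodes within 4-fold were all present in both, and of those higher in M1 cells 82.1% ± 2.01 were present in Ccr2lo and 98.7% ± 2.31 in M2 cells (SD, n = 3 mice).

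Barcodes over 4-fold higher in M1 cells held 66.1% and 67.5% of monocyte and 72.5% and 69.6% of neutrophil reads in mice 1 and 3. In B cells they held 21.9% and 10.7%, in T cells 6.83% and 7.18%, in Ccr2lo cells 5.55% and 4.59% and in M2 cells 12.4% and 11.5%. All 25 and 17 of them were present in both blood myeloid populations. In mouse 2 the class of 5 barcodes held 3.94% of monocyte and 0.288% of B cell reads. There the 34 barcodes within 4-fold held the bulk, with 89.0% of monocyte and 91.2% of neutrophil reads. With 10-fold as the limit the class higher in M1 held on average 0.988% of T cell reads in place of 4.69%, 6.37% of B cell reads in place of 10.97% and 30.5% of monocyte reads in place of 45.8%.

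**Figure D3:**
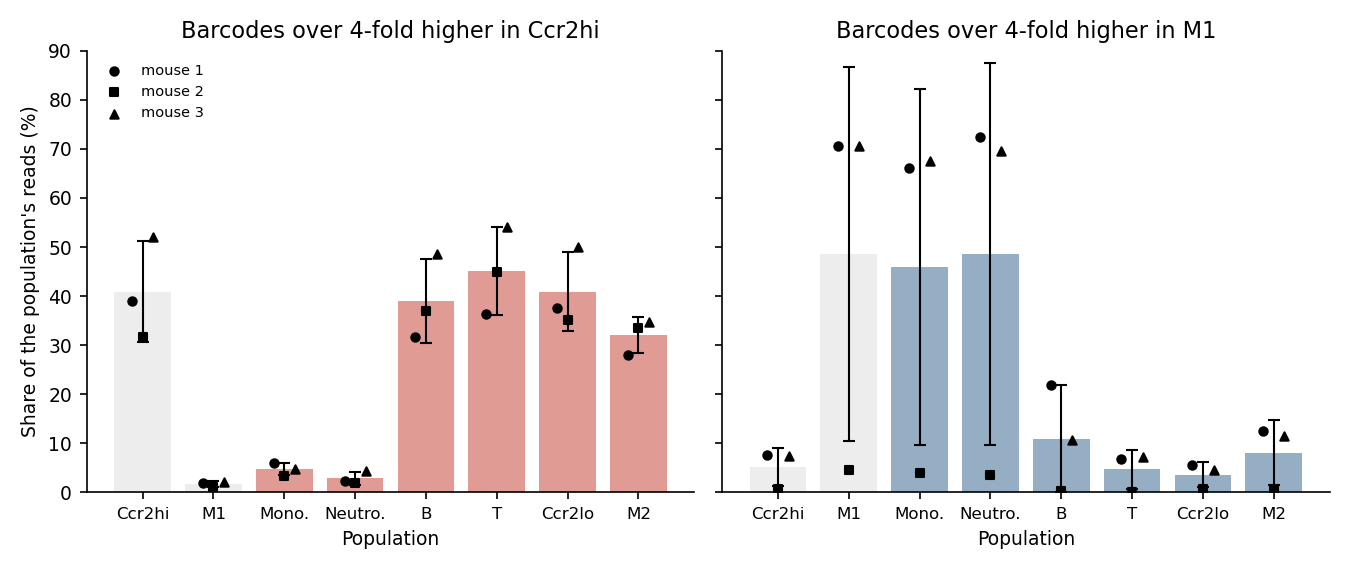
Share of each population's reads (%, vertical axis) held by the barcodes over 4-fold higher in cardiac Ccr2hi (left) or in renal M1 cells (right) of the same mouse; bars are means and error bars the SD over 3 mice, symbols are single mice, and grey bars are the samples that defined the class. The left class holds 31.6% to 54.1% of B and T cell reads but 1.97% to 5.88% of monocyte and neutrophil reads, and on the right mouse 2 lies far below mice 1 and 3.

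Set against each of the other populations of the mouse, Ccr2hi and M1 cells differed most in overlap with myeloid blood cells and with other tissue macrophages. This order holds for the overlap index and was turned with the Spearman correlation over present barcodes, given after the overlaps. The overlap with monocytes was 0.272, 0.429 and 0.227 for Ccr2hi and 0.856, 0.918 and 0.912 for M1 cells in mice 1, 2 and 3. With neutrophils it was 0.219, 0.411 and 0.219 for Ccr2hi and 0.888, 0.905 and 0.871 for M1 cells. With Ccr2lo cells the order was turned, with 0.785, 0.799 and 0.778 for Ccr2hi and 0.183, 0.314 and 0.142 for M1 cells. With M2 cells, of the same organ as M1, it was 0.678, 0.749 and 0.668 for Ccr2hi and 0.284, 0.344 and 0.232 for M1 cells. In each of these 4 comparisons the values of the subsets did not overlap.

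With lymphoid cells the overlaps of the subsets lay closer together. The overlap with B cells was 0.400, 0.422 and 0.464 for Ccr2hi and 0.349, 0.371 and 0.305 for M1 cells. With T cells it was 0.228, 0.347 and 0.245 for Ccr2hi and 0.180, 0.359 and 0.165 for M1 cells, so that mouse 2 went the other way. In blood, the highest overlap of Ccr2hi cells was with B cells in mice 1 and 3 and with monocytes in mouse 2. Monocytes or neutrophils were nearest to M1 cells in every mouse.

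The mean difference, Ccr2hi minus M1, was -0.585 ± 0.0977 for monocytes, -0.605 ± 0.0963 for neutrophils, 0.574 ± 0.0797 for Ccr2lo, 0.412 ± 0.0215 for M2 and 0.0871 ± 0.0624 for B cells (SD, n = 3 mice). Each of the 5 had an exact permutation p of 0.1 (3 against 3, two-sided, adjusted p = 0.121) and the same direction in 3 of 3 mice. For T cells it was 0.0388 ± 0.0473 (SD, n = 3 mice, exact permutation p = 0.6, adjusted p = 0.637), higher for Ccr2hi in 2 of 3 mice. With the Jaccard index, which counts present barcodes alike whatever their share, the T cell difference turned to -0.209 (exact permutation p = 0.1). Without mouse 3 the B cell difference was 0.0510. Both overlaps of a difference use the same sample of the other population. With the Spearman correlation in place of overlap the differences for monocytes, neutrophils and M2 cells changed sign and were small, at 0.0612, 0.0025 and -0.0310 (exact permutation p = 0.7, 0.9 and 0.5). The Spearman differences were largest for T cells, at 0.509, and B cells, at 0.236, with 0.105 for Ccr2lo (exact permutation p = 0.1 each).

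**Figure D4:**
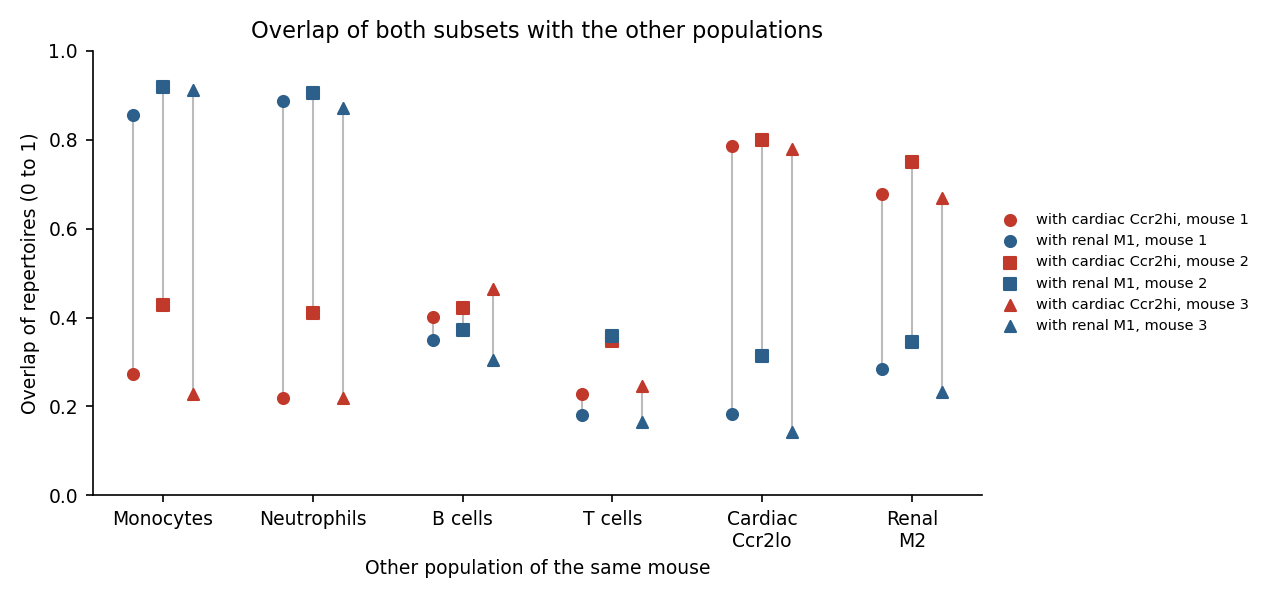
Overlap of repertoires (0 to 1, vertical axis) of cardiac Ccr2hi (red) and renal M1 cells (blue) with each other population of the same mouse (horizontal axis), 1 symbol shape per mouse, with a grey line joining both values. M1 lies above Ccr2hi for monocytes and neutrophils (0.856 to 0.918 against 0.219 to 0.429), and below it for Ccr2lo and M2 cells.

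The share of a subset's reads in barcodes present in another population gave another order, with M1 cells on average above Ccr2hi cells for all 6 populations. Barcodes present in monocytes held 97.4% ± 0.976 of M1 but 50.1% ± 8.45 of Ccr2hi reads (SD, n = 3 each). For barcodes present in neutrophils these were 97.2% ± 1.05 and 45.4% ± 8.31 (SD, n = 3 each). For barcodes present in B cells they were 96.5% ± 1.02 and 64.3% ± 6.72, and for T cells 93.4% ± 1.49 and 43.5% ± 11.1 (SD, n = 3 each). For barcodes present in Ccr2lo cells they were 97.9% ± 0.712 and 93.3% ± 0.977 (SD, n = 3 each). For barcodes present in M2 cells they were 98.5% ± 0.214 and 91.4% ± 2.00 (SD, n = 3 each). For B and T cells, Ccr2lo and M2 this is opposite to the direction of the mean overlap. A population with few barcodes is covered more readily, so this measure is not independent of the numbers of barcodes.

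Across mice, single barcodes gave no calls in the main test. At a Benjamini-Hochberg adjusted p under 0.05, edgeR's quasi-likelihood test called 0 of 1051 barcodes (0%) between Ccr2hi and M1 cells, and 9 passed an unadjusted p under 0.05. With the mouse as a block it was also 0 of 1051 (0%), with 14 at unadjusted p under 0.05. Scaled by sample totals alone, without the block, edgeR again called 0 of 1051 (0%), but 127 passed an unadjusted p under 0.05. Of these 127, 123 were higher in Ccr2hi cells, so the unadjusted count depends on the scaling. DESeq2 called 72 of 1051 (6.85%) without the block, all 72 higher in Ccr2hi cells, and 79 (7.52%) with it, 78 of them higher in Ccr2hi cells. The test needs barcodes that occur in several mice, and only 156 reached 0.01% in these samples of 2 or more mice, 8 of them at 0.1%.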

How the data were processed

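Genomic DNA of sorted cells was amplified for the barcode in 18 PCR cycles and indexed in 9 to 11 more, per the labels' protocols. The deposited files hold raw read counts per distinct barcode of 52 bases, 1 sample each; the authors' trimming, filtering and counting of reads are not given in the sources used here. Counts were divided by the file total. The same mouse number in the titles was taken as the same animal, and the overlap of Ccr2hi with M1 averaged 0.274 within and 0.0121 between numbers. Nothing else was taken as a batch, since the labels name none.

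Measures were compared by exact permutation (Python 3.11.15, numpy 2.4.6, scipy 1.17.1), with Benjamini-Hochberg adjustment over 17 tests. For single barcodes edgeR 4.0.16 under R 4.3.3 (quasi-likelihood, TMM, filterByExpr) was run, and DESeq2 1.42.0. Merging, the effective number, the overlap, the permutation of 3 against 3 and the edgeR test were tried on simulated data. DESeq2, the sign flips and the other procedures were not. The edgeR simulation gave every barcode the same spread between samples, which need not hold in these data. The test's filter keeps barcodes seen in several samples, and most barcodes belonged to 1 mouse, so a count of 0 says little on barcodes of single mice.

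Named barcodes were, in each mouse, the 3 highest in each subset and the 2 most biased each way (ratio of shares after 0.01% was added to both) among those at 0.1% or more in either. The members and lists were chosen with earlier results of these data known. Alternatives were thinning to 6808221 reads, joining a barcode to another 1 mismatch away with at least 10 times its reads, removing barcodes under 10 reads, removing barcodes whose share was 100 times higher in a different mouse, omitting each mouse, other thresholds, indices, folds and filters. Keeping alternating barcodes only was added after the data were seen. The other 18 samples entered only where named.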

Additional observations from a re-analysis of the deposited data

Results flagged for a closer look

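The difference in overlap between Ccr2hi and M1 cells (Ccr2hi minus M1) had opposite signs for different partner populations in every mouse. It was above 0 in 3 of 3 mice with B cells, Ccr2lo and M2 macrophages and below 0 in 3 of 3 mice with monocytes and neutrophils. Between B cells and monocytes the mean differences were 0.673 apart, between Ccr2lo and monocytes 1.16, and between M2 and monocytes 0.997. Against neutrophils the same distances were 0.692, 1.18 and 1.02. These distances were not tested. The effective number of barcodes was 19.1 to 33.3 in M1 cells, 23.0 to 42.4 in monocytes, 22.4 to 31.3 in neutrophils, 21.8 to 72.6 in T cells and 91.9 to 146 in B cells. It was 333 to 791 in Ccr2hi, 419 to 889 in Ccr2lo and 355 to 736 in M2 cells. In mice 1, 2 and 3 it was 72.6, 56.2 and 21.8 in T cells and 33.3, 24.8 and 19.1 in M1 cells. T cells overlapped by 0.180, 0.359 and 0.165 with M1 and by 0.228, 0.347 and 0.245 with Ccr2hi cells. The part of the effective number in the pattern was not tested. All these distances rest on the same 6 samples of Ccr2hi and M1 cells.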

How the results depend on the processing

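Across 39 results, 373 of 398 recomputed values were scored as unchanged. That includes every one under thinning, merging, removal of rare barcodes or of traces of other mice, and alternating barcodes only. For tests on samples it meant the same direction only, since no exact permutation with 3 mice can pass the threshold. Shares held by classes were unchanged if they moved by less than the spread between mice. Counts per class were scored by relative change. An average of 123 barcodes higher in Ccr2hi at 10-fold, against 161 at 4-fold (SD 25.1, n = 3 mice), passed as unchanged. Exact sign flips over mice, the replicate block, gave p = 0.25 where 3 of 3 mice pointed one way. Sign flips leave each value as it is and cannot pass the threshold either, so they could change no call. For single barcodes across mice the block left 0 calls. DESeq2 gave 72 calls, and 79 with the block. The Jaccard index turned the difference between the pair and M1 with M2 to 0.00161 and the T cell difference to -0.209. The Spearman correlation turned the differences from Ccr2hi with M2, M1 with M2 and M1 with monocytes to 0.0358, 0.00488 and 0.0630, and those for monocytes, neutrophils and M2 to 0.0612, 0.00251 and -0.0310. Leaving out a mouse moved the difference from M1 with M2 between -0.0472 and 0.0124. The causes were not tested.

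Counts of single barcodes followed the limits by construction. On average 28.7 barcodes per mouse were over 2-fold higher in M1 and 9 lay within 2-fold, while 9 were over 10-fold higher in M1 and 72.7 lay within 10-fold. With a minimum of 0.01%, 502 were over 4-fold higher in Ccr2hi and 572 lay within 4-fold. At 10-fold the barcodes higher in Ccr2hi held 2.12% of monocyte, 1.15% of neutrophil, 23.9% of B cell, 18.0% of T cell, 31.9% of Ccr2lo and 22.8% of M2 reads, and those within 10-fold held 48.4% of B and 54.9% of T cell reads. Without mouse 1 the barcodes higher in M1 held 5.49% of B cell reads, against 10.97% over 3 mice.

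With 3 mice the smallest p of a test on samples was 0.1. Shares near or below 0.001% lie where barcodes also appear in other mice, and some barcodes appeared in other mice at higher shares. GAGTGTCTGA of mouse 1, for example, reached 0.0538% in M2 cells of mouse 2. In Ccr2hi or M1 cells, 156 barcodes reached 0.01% in 2 or more mice.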

Other observations

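The leading pair of Ccr2hi barcodes in mouse 1, CAGAGTGTCT and GTCACAGACA, stood at nearly equal shares in all 8 populations of that mouse. They held 2.18% and 2.12% of Ccr2hi, 6.04% and 5.92% of M1, 1.74% and 1.78% of Ccr2lo, and 2.52% and 2.38% of M2 reads. In blood they held 4.98% and 4.76% of monocyte, 5.27% and 4.95% of neutrophil, 0.534% and 0.452% in B cells, and 0.582% and 0.518% in T cells. GTCACAGACA departs from the alternating order and CAGAGTGTCT follows it. The pair was picked out after its values were seen.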
